A study of Mus musculus with 7 samples.

Results

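Lin28b, Hmga1, Hmga2, Igf2bp1, Igf2bp2, Igf2bp3 and Arid3a are genes that many tissues use in fetal life and lower as they mature. They were taken as the 7 rows of the authors' deposited table whose gene symbol equals one of these names, of 23358 gene rows in all, and each had 1 row. The table compares RNA of cells labelled endothelial, sorted out of the mouse brain at E14.5, between a control group of 3 libraries and a Tgfbr2-deficient group of 4 libraries. Both groups were of strain C57Bl6. Sorting used TdTomato, a red fluorescent protein switched on from the Ai14 allele by recombination, and between 2000 and 5000 cells went into a library. Tgfbr2 encodes a receptor for the TGF-β signalling proteins. The sources used here do not name the Cre driver or the deleted exons, nor say whether a library came from 1 embryo or several, so the authors' p-values and q-values cover the spread among these samples alone, which could be technical.

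LIN28B is an RNA-binding protein that blocks the maturation of the let-7 microRNAs. The let-7 family in turn represses messenger RNAs that carry matches to its seed, among them those of Lin28b itself, of the chromatin protein HMGA2 and of the IGF2BP proteins, so that LIN28 and let-7 oppose each other. HMGA1 and HMGA2 bind AT-rich DNA and shape chromatin, the 3 IGF2BP proteins bind messenger RNAs such as that of Igf2 and affect their stability and transport, and ARID3A is a DNA-binding protein that has been placed in the LIN28B and let-7 pathway of fetal blood cells.

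The letters that tie these genes together are the let-7 seed and its matches. The mature sequences, from RefSeq (GRCm38.p6), are shown for 4 family members, with the seed (bases 2 to 8) in capitals. All 9 mature 5′ arms of the family that were looked up share the seed GAGGUAG.
let-7a: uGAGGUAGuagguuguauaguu
let-7d: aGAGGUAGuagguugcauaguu
let-7g: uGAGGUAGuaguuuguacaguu
miR-98: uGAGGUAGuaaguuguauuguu

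The reverse complement of the seed, CTACCTC, was searched on the transcript strand of the longest annotated 3′ untranslated region of each protein-coding gene in GENCODE M21 (GRCm38). A match followed by A is the 8-base form CTACCTCA, which contains the 7-base form and was counted once. The first match in each member is shown as DNA with the 14 bases before it, the match in capitals, in the mm10 build.
Lin28b, chr10:45381022-45381043, minus strand: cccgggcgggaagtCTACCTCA
Hmga2, chr10:120364224-120364245, minus strand: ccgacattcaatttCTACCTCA
Igf2bp1, chr11:95961778-95961799, minus strand: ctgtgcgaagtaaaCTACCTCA
Igf2bp2, chr16:22059473-22059494, minus strand: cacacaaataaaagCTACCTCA
Igf2bp3, chr6:49086787-49086808, minus strand: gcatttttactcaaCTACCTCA
Arid3a, chr10:79953896-79953917, plus strand: aggcaagtttctttCTACCTCA
Hmga1, chr17:27563278-27563298, plus strand: cctctgttcacaaaCTACCTC

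All 7 members held at least 1 match, 17 in all, of which 8 were of the 8-base form. Lin28b, Hmga2 and Igf2bp1 each held 4. Only 12 of 21005 genes with an annotated 3′ untranslated region held 4 or more, and 3 of those 12 were these members. A match of any kind was present in 1895 of the 21005 genes (9.02%). Long regions hold more matches, so each member was set beside genes whose region was within 20% of its own length. For Igf2bp1, with 6337 bases, 33.6% of 563 such genes held a match and 2 of them, Igf2bp1 included, held 4 or more. For Lin28b, with 4445 bases, 24.2% of 1270 genes held a match and 3 held 4 or more. Among 2245 genes near the 3014 bases of Hmga2, 15.5% held a match and 3 held 4 or more. Arid3a held 2 matches, and 50 of 2209 genes of its length, itself included, held 2 or more. Hmga1, Igf2bp2 and Igf2bp3 held 1 match each, against a share with a match of 8.08%, 12.1% and 13.3% among genes of their length. A match is a description of the letters and does not show that let-7 acts there, and matches of other kinds were not searched. Several members were already known as let-7 targets, so their many matches are not separate support for that.

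**Figure D1:**
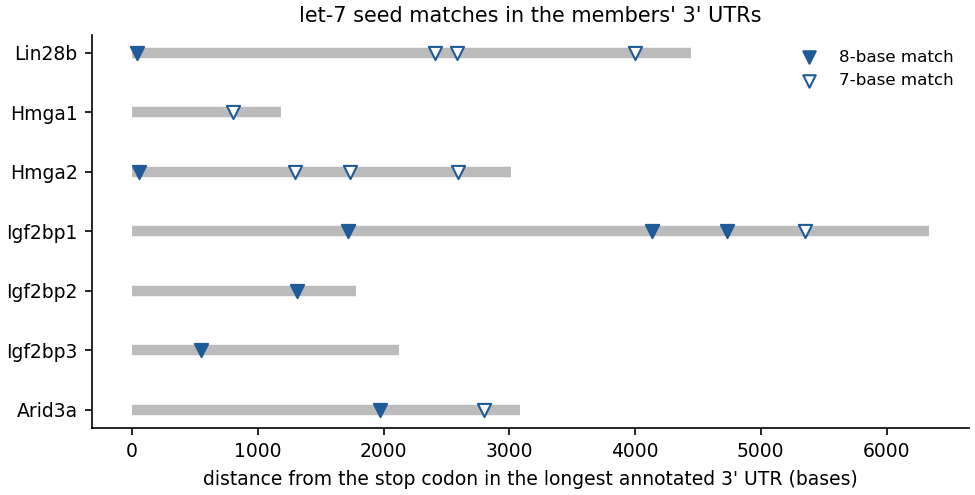
Positions of let-7 seed matches along the longest annotated 3′ untranslated region of each member (x axis: bases from the stop codon; grey bars: the region; filled triangles: 8-base matches; open triangles: 7-base matches). Lin28b, Hmga2 and Igf2bp1 carry 4 matches each, and the first match of Lin28b and of Hmga2 lies 36 and 58 bases after the stop codon.

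The values that follow are FPKM (fragments per kilobase of transcript, scaled by depth), which the authors gave as 1 value per gene and group. FPKM is a level per length, so genes are set beside each other below. Whether reads covered transcripts evenly was not checked, so comparisons of level between genes are approximate. Values per library were not analysed here, so no spread between libraries, interval or detection floor can be set, depth is unknown, and the only error measure is the q-value in the authors' deposited table. Genes were read as higher or lower at a deposited q under 0.05 among 13356 genes that the authors tested and that reached 1 FPKM in either group. In bulk RNA, fewer cells of a type and less RNA per cell cannot be told apart.

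Tgfbr2 itself went from 91.1 to 65.4 FPKM, control to Tgfbr2-deficient, and did not pass (q = 0.0953 in the authors' deposited table). Its log2 fold of FPKM + 1 was −0.47, and becomes 0.068 with ribosomal protein genes taken as the zero. The labelled cell type was set against its markers. Of 10 endothelial markers, summed at 69.8 FPKM in the control and 337 FPKM in the Tgfbr2-deficient group, 9 were higher and 0 lower, and at an unadjusted p under 0.05 the numbers were 9 and 0. All 10 microglia and macrophage markers, summed at 6920 and 2974 FPKM, were lower. In both groups that sum stood above the endothelial sum, so the marker sums do not bear out the endothelial label. Markers of neural progenitors rose in 7 of 8 cases (199.8 to 330.1 FPKM summed), of fibroblasts and meninges in 6 of 6 (101 to 855 FPKM), of neurons in 6 of 6, of pericytes in 6 of 7, of mast cells in 5 of 6, of megakaryocytes in 5 of 6 and of erythroid cells in 6 of 7, the last 2 lists with 1 marker lower each, and no marker in these lists was at 0 FPKM in either group. Summed, the erythroid markers went from 396 to 2354 FPKM and the mast cell markers from 7.97 to 359 FPKM. The megakaryocyte sum fell, from 1880 to 861 FPKM. The members' values move between the same 2 groups, and the part of these cell types in the results below was not tested.

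Of the 7 members, Hmga2 and Igf2bp2 rose, Igf2bp3 fell, Igf2bp1 fell except when folds were centred on ribosomal protein genes, and Lin28b, Hmga1 and Arid3a did not pass. All 7 passed the filter on low values. The background in the same comparison was 23.9% of the tested genes higher, 14.7% lower and 38.6% in either direction, so 2, 2 and 4 of 7 are not far from it. The members' median log2 fold of FPKM + 1 (Tgfbr2-deficient over control) was −0.50, with −0.08 over all tested genes. Of the members' folds, 5 of 7 were below 0, beside 7337 of all 13356 tested genes, which is not far from that share. Folds are relative: with 80 ribosomal protein genes taken as the zero, each log2 fold is 0.54 higher, and the median turns to 0.038.

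**Figure D2:**
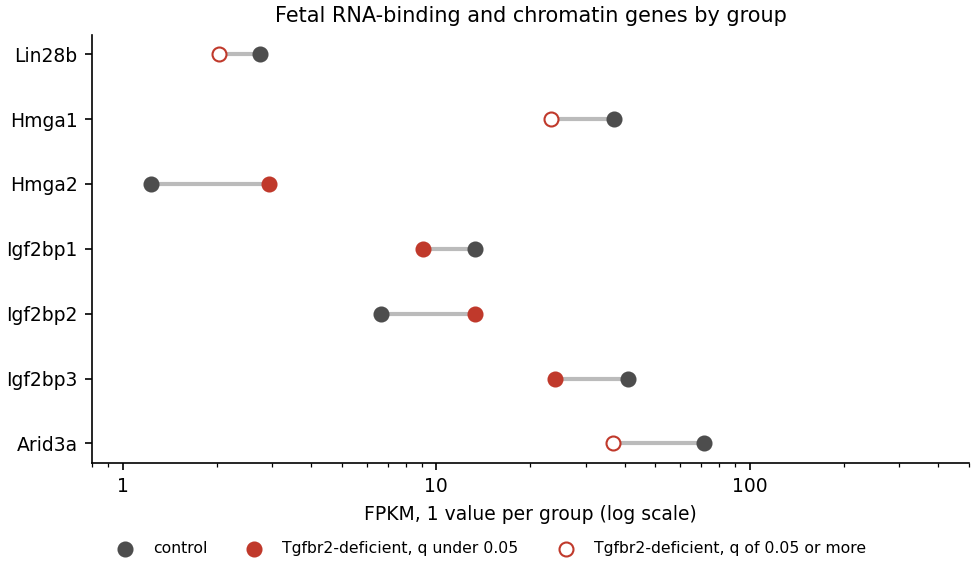
FPKM of each member in the control group (grey) and the Tgfbr2-deficient group (red), on a log axis, 1 value per group and no error bars. Filled red points have a deposited q under 0.05: Hmga2 and Igf2bp2 lie to the right of their control point, Igf2bp1 (whose direction turns when folds are centred on ribosomal protein genes) and Igf2bp3 to the left.

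In the control group Arid3a had the highest level of the 7, at 71.7 FPKM, followed by Igf2bp3, Hmga1, Igf2bp1, Igf2bp2, Lin28b and, lowest, Hmga2 at 1.23 FPKM. In the Tgfbr2-deficient group Arid3a, Igf2bp3 and Hmga1 kept the upper places, while Igf2bp2 stood above Igf2bp1 and Hmga2 above Lin28b. Which neighbours in these orders differ beyond their spread cannot be said from 1 value per group. The median tested gene stood at 9.37 FPKM in the control and 10.1 FPKM in the Tgfbr2-deficient group, so Lin28b and Hmga2 were below it in both.

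Lin28b, the let-7 inhibitor, was measured at 2.75 FPKM in the control libraries and at 2.02 FPKM in the Tgfbr2-deficient libraries. Its log2 fold in the authors' deposited table was −0.44 (p = 0.109, q = 0.199) and did not pass. On FPKM + 1 the log2 fold was −0.31, and it becomes 0.23 when centred on ribosomal protein genes. Lin28b lies on chromosome 10 from 45376619 to 45470201 in the authors' coordinates, where GENCODE M21 has the protein-coding gene ENSMUSG00000063804.8 on the minus strand and no overlapping gene. Its paralogue Lin28a, the form known from embryonic stem cells, was listed at 0.286 and 0.175 FPKM and was not tested by the authors.

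Hmga2, the architectural chromatin protein best known as a let-7 target, was measured at 1.23 FPKM in the control libraries and at 2.94 FPKM in the Tgfbr2-deficient libraries, 2.39 times the control level. It rose with a log2 fold of 1.25, p = 3e-04 and q = 0.00145 in the authors' deposited table. On FPKM + 1 the log2 fold was 0.82, a scale that understates the change of a gene this low. Hmga2 and Lin28b fell in the same 10% band of tested genes by mean level, in which 45.8% were higher and 2.69% lower. The Hmga2 row spans chromosome 10 from 120361275 to 120476935 (ENSMUSG00000056758.14, minus strand), and 2.07% of its annotated exonic bases lie over an antisense gene, whose reads cannot be told apart because the library kits do not mark strand. A pseudogene row, Hmga2-ps1 on chromosome 1, was listed at 18.7 and 11.98 FPKM, above Hmga2 itself, and did not pass (q = 0.173 in the authors' deposited table). Its coordinates are shared with the row of Sdccag8, and how reads were divided between these copies is not known here.

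Hmga1, the paralogue of Hmga2, was measured at 37.0 FPKM in the control libraries and at 23.2 FPKM in the Tgfbr2-deficient libraries. Its log2 fold of −0.67 did not pass, with p = 0.436 and q = 0.565 in the authors' deposited table. Its row spans chromosome 17 from 27556574 to 27563672. The table's headers do not say how reads were divided between similar sequences, so the level of Hmga1 is uncertain. Of the annotated exonic bases of Hmga1, 4.80% overlap AI413582 on the opposite strand. That gene fell from 50.6 to 29.2 FPKM (q = 0.0125 in the authors' deposited table), and some reads could belong to either gene.

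**Figure D3:**
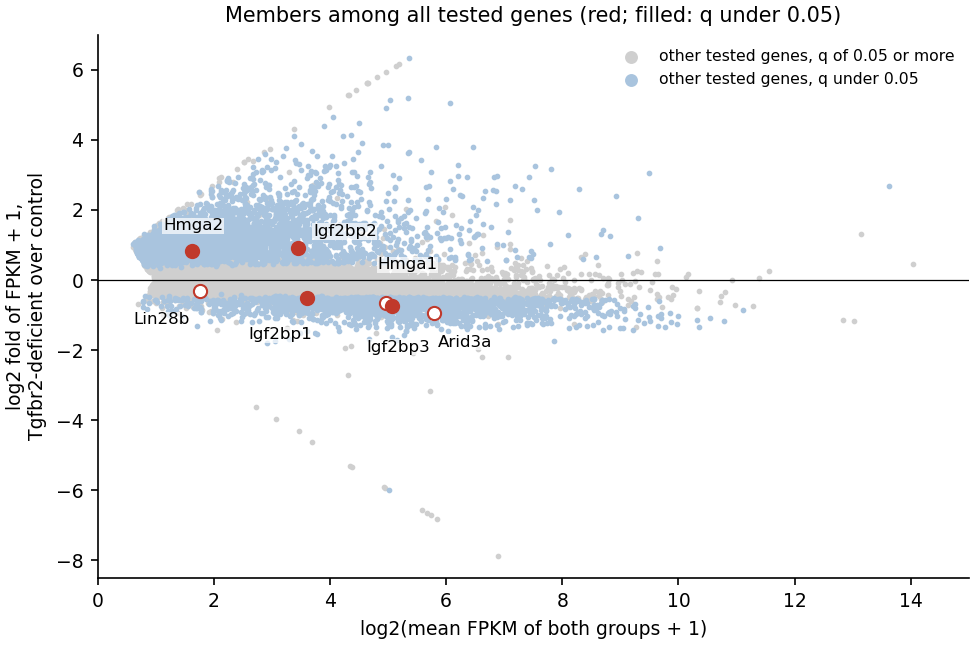
Log2 fold of FPKM + 1 (y axis, Tgfbr2-deficient over control) against log2 of the mean FPKM + 1 (x axis) for the 13356 tested genes (grey: q of 0.05 or more; blue: q under 0.05), with the 7 members as red circles, filled where q was under 0.05. Hmga2 and Igf2bp2 lie above 0, and the other members lie below 0 among genes that cover the same range of folds.

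The IGF2BP genes moved in different directions under every scaling run, with Igf2bp2 higher and Igf2bp3 lower, while the direction of Igf2bp1 depended on the scaling. Igf2bp3, the most abundant of the family here, was measured at 40.8 FPKM in the control libraries and at 24.0 FPKM in the Tgfbr2-deficient libraries. It fell by 0.77 on the log2 scale of the authors' deposited table, with p = 3.5e-04 and q = 0.00165, and its log2 fold on FPKM + 1 was −0.74, or −0.20 when centred on ribosomal protein genes. Of its annotated exonic bases, 18.7% lie over Malsu1 on the opposite strand, a mitochondrial ribosome assembly gene at 19.5 and 13.8 FPKM that did not pass (q = 0.187 in the authors' deposited table), so some reads could belong to either gene.

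Igf2bp1, known from fetal brain and from the transport of β-actin messenger RNA, was measured at 13.3 FPKM in the control libraries and at 9.08 FPKM in the Tgfbr2-deficient libraries. It fell by 0.55 on the deposited log2 scale with p = 0.00885 and q = 0.0263 in the authors' deposited table, though its log2 fold on FPKM + 1, −0.50, becomes 0.038 when centred on ribosomal protein genes. Within the gene, the microRNA locus Mir3063 has the same coordinates in the table as Igf2bp1 and was listed at 135 and 166 FPKM, with q = 0.923 in the authors' deposited table. It lies on the same strand and shares 92 annotated exonic bases with Igf2bp1, so some reads could belong to either row.

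Igf2bp2, the member of the family that stays on in many adult tissues, was measured at 6.65 FPKM in the control libraries and at 13.3 FPKM in the Tgfbr2-deficient libraries. It rose with a log2 fold of 0.997, p = 5e-05 and q = 0.00029 in the authors' deposited table, the smallest p and q given there, which 2357 tested genes shared. Igf2bp1 and Igf2bp2 fell in the same 10% band by mean level, in which 16.9% were higher and 11.1% lower.

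The make-up of the family differed between the groups. Igf2bp3 made up 67.2% of the summed IGF2BP FPKM in the control group and 51.8% in the Tgfbr2-deficient group. Igf2bp2 went from 10.95% to 28.6%, and Igf2bp1 from 21.9% to 19.6%. The sum was 60.7 FPKM in the control and 46.3 FPKM in the Tgfbr2-deficient group. Igf2bp3 thus stood at 6.13 times the level of Igf2bp2 in the control and at 1.81 times in the Tgfbr2-deficient group. These shares are free of any common scaling of a group, but they rest on levels of different genes and have no test of their own.

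Arid3a, an ARID family DNA-binding protein, was measured at 71.7 FPKM in the control libraries and at 36.6 FPKM in the Tgfbr2-deficient libraries. Its deposited log2 fold was −0.97, the lowest of the 7 members and lower than those of Igf2bp1 and Igf2bp3, yet it did not pass, with p = 0.700 and q = 0.790 in the authors' deposited table. The relative Arid3b, also a let-7 target, fell from 14.7 to 9.78 FPKM with q = 0.0251 in the authors' deposited table, a log2 fold of −0.54 on FPKM + 1 that becomes 0.0020 when centred on ribosomal protein genes. Arid3c was listed at 0.014 and 0.038 FPKM and was not tested.

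The row of Arid3a does not have the coordinates of the gene. It spans chromosome 10 from 79697305 to 80369637, 672 kb, while GENCODE M21 places Arid3a (ENSMUSG00000019564.12, plus strand) from 79927043 to 79955018, 28.0 kb. In all, 46 gene rows of the table have those same coordinates, 37 of them tested at the filter used here. By the authors' Cuffdiff test 0 of the 37 had a q under 0.05, 1 had an unadjusted p under 0.05, and the lowest q was 0.0732, although 12 of them had a fold of at least 2 in either direction. Elane, a neutrophil elastase gene of this stretch, went from 0.274 to 7.80 FPKM with q = 0.0732 in the authors' deposited table.

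Calls went with shared coordinates across the table. Of 10861 tested genes whose row shares its coordinates with no other row, 41.8% were called, of 1863 with 1 other row 27.3%, of 553 at positions of 3 to 9 rows 19.2%, and of 79 at positions of 10 rows or more 2.53%. The median size of the log2 fold in these classes was 0.44, 0.41, 0.43 and 0.59. The authors' test statistic for the log fold can be read beside the fold: the deposited log2 fold divided by the statistic is larger where the test gave a fold of the same size less weight. This ratio was 2.80 for Arid3a and 1.11 for Hmga1, above 98.6% and 94.8% of the tested genes, against a median of 0.44. For Igf2bp3 and Igf2bp1 it was 0.36 and 0.37, among the lowest 5%, and for Igf2bp2, Lin28b and Hmga2 it was 0.41, 0.47 and 0.55. Arid3a and Hmga1 did not pass, with log2 folds larger in size than that of Igf2bp1, which did. Sharing coordinates did not go with a missed call in every member: Hmga2 and Igf2bp1 each share theirs with 1 other row and passed. Missing the threshold does not show that Arid3a, Hmga1 or Lin28b was equal in the 2 groups.

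**Figure D4:**
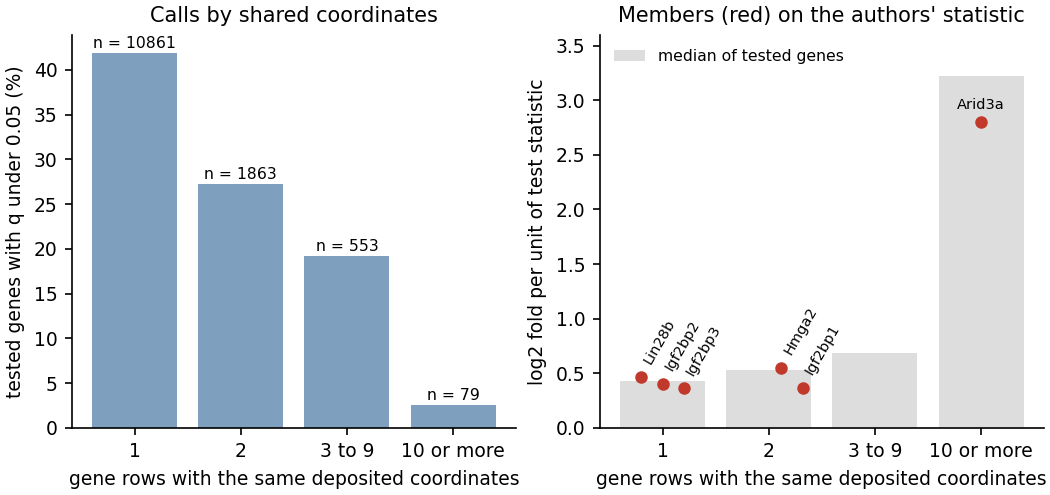
Left: percent of tested genes with a deposited q under 0.05 by the number of gene rows that have the same coordinates (bars from 0, n above each). Right: deposited log2 fold per unit of the authors' test statistic, median of tested genes (grey bars) with 6 of the 7 members, Hmga1 left out (red points), where Arid3a stands at 2.80 in the class of 10 rows or more.

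The let-7 genes themselves could not be read from this table. It holds 12 let-7 family precursor rows, counting Mir98, and 11 of them were listed at 0 FPKM in both groups, while Mirlet7d was listed at 0 and 9.28 FPKM and was not tested. Libraries primed on poly(A) tails do not capture mature microRNAs, so these rows do not measure them. Genes that hold a let-7 precursor on the same strand were looked up, leaving out names that start with Mir and genes without a row. Most precursors had no host under this rule, so host genes named after a microRNA are not covered. Huwe1, host of Mirlet7f-2 and Mir98, was at 6.64 and 7.96 FPKM, and Wdr82, host of Mirlet7g, at 15.8 and 14.7 FPKM. The remaining host under this rule, 3110039I08Rik of Mirlet7a-2, was at 0.0384 and 0.708 FPKM. Its log2 fold was 4.21 with q = 0.254 in the authors' deposited table, and it did not pass.

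The next list holds 27 genes that make let-7, act with it or hold it back. These roles are mixed, so the counts and median give no direction for let-7 itself. Of the 27, 0 rose and 1 fell (3.70%) by the authors' Cuffdiff q, beside 23.9% higher and 14.7% lower over all tested genes. At an unadjusted Cuffdiff p under 0.05 the numbers were 1 and 5, beside 3472 and 2726 of all 13356 tested genes. The median log2 fold of FPKM + 1 was −0.07, against −0.08 over all tested genes. The gene that fell was Trim25, an RNA-binding ubiquitin ligase and cofactor of LIN28A, from 22.1 to 13.6 FPKM (q = 0.0039 in the authors' deposited table). The 4 most abundant, none of which passed, were Ran, the GTPase of nuclear export, at 201 and 139 FPKM, the helicase Ddx5 at 111 and 99.5 FPKM, the RNA-binding protein Khsrp at 91.8 and 70.7 FPKM and the nucleotidyl transferase Papd4 at 48.1 and 34.8 FPKM. Dicer1, which cuts the precursor, was at 6.02 and 5.70 FPKM.

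Genes described as let-7 targets, the 7 members left out, moved both ways. Of 36 tested, 12 rose (33.3%) and 7 fell (19.4%) on the uncentred scale, with a median log2 fold of −0.16, beside 23.9% and 14.7% over all tested genes. Not every fall holds when folds are centred on ribosomal protein genes, as that of Arid3b becomes 0.0020. Among the most abundant, the collagen genes Col3a1 and Col1a2 rose from 38.8 to 305 and from 25.9 to 208 FPKM, Gatm of creatine synthesis fell from 151 to 98.1 FPKM, and Cdc34, a ubiquitin-conjugating enzyme, was at 119 and 92.6 FPKM and did not pass. Both collagen genes are also made by fibroblasts, whose 6 markers all rose. Col3a1 is itself 1 of those 6, so the marker count is not separate from its rise, and the part of those cells was not tested.

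The same could be asked of the letters rather than of a list, a split made after the members' values were seen. Of 12143 tested genes with an annotated 3′ untranslated region, 1271 held a let-7 seed match, and of these 25.9% were higher and 14.6% lower, with a median log2 fold of −0.05. Of the 10872 without a match, 24.6% were higher and 15.2% lower, with a median of −0.09. Among the 20 tested genes with 3 or more matches, Lin28b, Hmga2 and Igf2bp1 included, 4 were higher and 4 lower.

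Of 23 RNA-binding proteins known from the same particles as the IGF2BP proteins, 2 rose (8.70%) and 0 fell by the authors' Cuffdiff q. Over all tested genes these shares were 23.9% and 14.7%. At an unadjusted Cuffdiff p under 0.05 the numbers were 2 and 1, beside 3472 and 2726 of all 13356 tested genes. The risers were Csda, a cold-shock domain protein, from 103.7 to 155 FPKM, and the neuronal Elavl2, from 2.52 to 6.66 FPKM. The most abundant partners, Pcbp1 at 430 and 313 FPKM, Ybx1 at 361 and 250 FPKM, Hnrnpu at 316 and 271 FPKM and Pabpc1 at 163 and 192 FPKM, did not pass. Of 18 writers, erasers and readers of N6-methyladenosine, the RNA mark that IGF2BP proteins can read, 0 rose and 0 fell by the same q, beside 23.9% and 14.7% over all tested genes. At the same unadjusted p the numbers were 0 and 1, beside 3472 and 2726 of all 13356 tested genes. The most abundant of them were Hnrnpa2b1 at 419 and 338 FPKM, Hnrnpc at 102 and 100.1 FPKM, the reader Ythdf2 at 39.5 and 28.03 FPKM and Wtap, a subunit of the writer complex, at 35.8 and 30.7 FPKM.

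Of 16 tested genes whose RNAs are known to be bound by IGF2BP proteins, 5 rose (31.3%) and 1 fell (6.25%), beside 23.9% and 14.7% over all tested genes, so the share that rose is not far from the background. The median log2 fold was 0.10, against −0.08 over all tested genes. Igf2, the growth factor that names the family, rose from 18.5 to 118 FPKM, and H19, the imprinted RNA beside it, from 18.3 to 58.6 FPKM, both with q = 0.00029 in the authors' deposited table. Myc fell from 71.6 to 39.4 FPKM (q = 5.4e-04 in the authors' deposited table). Actb, a classic target of Igf2bp1, stood at 3136 and 1868 FPKM, Rac1 at 431 and 283 FPKM and Ctnnb1 at 146 and 171 FPKM, and none of these passed.

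In the wider chromatin families the shares were set beside the same background of 23.9% higher and 14.7% lower. Of 18 tested genes of the HMG box and nucleosome-binding list, 2 rose (Hmgn3 and H1fx) and 2 fell (Hmgb2 and Supt16), 11.1% each way. The abundant Hmgn2, at 601 and 434 FPKM, Hmgb1, at 245 and 198 FPKM, Hmgn1, at 230.1 and 200.3 FPKM, and the linker histone gene H1f0, at 129 and 157 FPKM, did not pass. Of 12 tested ARID family genes, Arid4b and Kdm5b rose and Arid3b, on the uncentred scale, and Arid5a fell, 16.7% each way. The abundant Kdm5c, at 33.1 and 26.6 FPKM, Arid1a, at 16.4 and 15.6 FPKM, and Jarid2, at 14.4 and 17.5 FPKM, did not pass. Arid5a, an RNA-binding regulator of inflammatory messages, went from 10.6 to 4.95 FPKM, and Kdm5b, a histone demethylase, from 9.54 to 23.1 FPKM.

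Factors of fetal blood and progenitor cells, where LIN28B, HMGA2, IGF2BP3 and ARID3A have been studied together, mostly rose. Of 15 tested, 11 rose (73.3%) and 2 fell (13.3%), with a median log2 fold of 1.52, beside 23.9%, 14.7% and −0.08 over all tested genes. Tal1 rose from 7.97 to 31.5 FPKM, Gata2 from 1.61 to 29.2 FPKM and the stem cell factor receptor Kit from 1.98 to 27.8 FPKM, while Lmo2 fell from 108 to 72.5 FPKM and Runx1 from 18.5 to 10.2 FPKM. Most markers of erythroid, mast and megakaryocyte cells rose between the same groups, though the summed megakaryocyte markers fell, as given above. Most markers of endothelium, neurons, neural progenitors, pericytes and fibroblasts rose as well. Of the 11 risers, 3 are themselves in those marker lists, Gata1 and Klf1 as erythroid and Kit as mast cell markers. The part of these cells was not tested. Of the members named with this programme, Hmga2 rose, Igf2bp3 fell, and Lin28b and Arid3a did not pass.

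**Figure D5:**
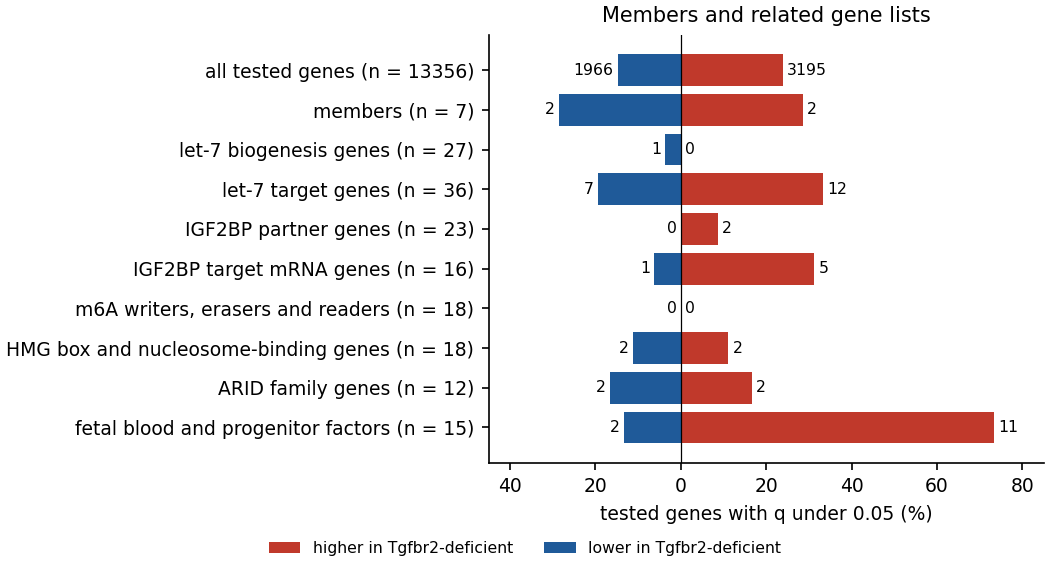
Percent of tested genes higher (red, right) and lower (blue, left) in the Tgfbr2-deficient group at a deposited q under 0.05, for all tested genes, the 7 members and 8 related lists, with the number of genes at each bar end. The members show 2 and 2 of 7, and the fetal blood and progenitor list 11 and 2 of 15.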

How the data were processed

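RNA of sorted cells was extracted, amplified from poly(A) tails and sequenced as single-end reads of 50 bases, per the labels' protocols. The submitters' processing notes name build mm10, TopHat2, Cufflinks 2.2.1 and Cuffdiff; the sources used here give neither the annotation nor the options. Per the file headers, the deposited table gives 1 FPKM value per group and gene, the log2 fold between groups without a pseudocount, a test statistic, which is a score, and the p-value and q-value of the authors' Cuffdiff test over the whole table; the table holds 0 columns per library. From these, folds were computed as log2 of FPKM + 1, and rows with test status OK and 1 FPKM or more in at least 1 group were counted at q under 0.05 (Python 3.11.15, pandas 2.3.3). Of 243 list symbols, 242 matched a row, 13 through older symbols in a RefSeq table of GRCm38.p6. The named genes were all 7 members, their close relatives (1 is not reported here), Tgfbr2, and from each related list the 4 most abundant tested genes and those called in the rarer direction where these were 3 or fewer, with marker lists given as counts and sums only; Dicer1, Elane, Huwe1, Wdr82, Malsu1 and Hmga2-ps1, and called genes of small lists, were named after their values were seen. With 1 value per group no measure of likeness between gene patterns was computed. The members and lists were chosen with earlier results of these data known. Counting, adjustment and motif search were tested on simulated data.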

Additional observations from a re-analysis of the deposited data

How the results depend on the processing

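No paired analysis was possible because the table holds 1 value per group and none per library, and leaving out a replicate could not be run for the same reason. The count of members that rose, 2, became 1 at a minimum of 5 FPKM, which removes Hmga2 and Lin28b, and 1 when a fold of at least 2 was also asked for, which Igf2bp2 just misses. The count that fell, 2, became 1 at q under 0.01 and 0 with a fold of at least 2, which no member lower by the authors' Cuffdiff fold reached at any p. With that fold the let-7 biogenesis count of 1 became 0 and the let-7 target count of 19 became 11. The IGF2BP partner count of 2 became 1 both there and at q under 0.01. Over all tested genes the share called in either direction also fell, from 38.6% to 28% at q under 0.01. With a fold of at least 2 it was 22.9%. Centring on ribosomal protein genes reversed the members' median to 0.038, Lin28b to 0.23 and Igf2bp1 to 0.038, and kept the sign of Hmga1, Hmga2, Igf2bp2, Igf2bp3 and Arid3a. The other settings run left these counts within 1.5 times and the folds in their direction. Low levels could not be weighed against depth, which is unknown.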
